A study of Homo sapiens with 3 samples.

Results

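The teneurin genes TENM1 to TENM4 and the giant FAT cadherin genes FAT1 to FAT4 were examined for RNA recovered with the chromatin-looping protein CTCF in U2OS, a human osteosarcoma cell line. The 8 genes were taken by name, because TENM2 and FAT1 are among the genes with the highest counts in this experiment. Counts were present for 7 of the 8, out of 17201 genes in the deposited table. TENM1 (ENSG00000009694) was not listed. The 7 genes held 5350 of the 1322047 counts in the table, or 0.405%.

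The measurement was PAR-CLIP, in which 4-thiouridine in newly made RNA is crosslinked by ultraviolet light to proteins that touch it before the protein is precipitated. U2OS cells, for which the labels name no genetic change, were given 400 µM 4-SU for 16 to 24 h and exposed to 365 nm light at 400 mJ/cm2, and CTCF was precipitated from nuclear lysate. The labels describe 3 samples, namely 2 biological replicates made with different lots of 1 antibody and a merge of their reads; the table of the merge was used here. There was 1 condition, with no control precipitation and no RNA abundance among the values analysed, so each value describes what was recovered and carries no replicate error. No test between groups could be made. Intervals below are exact 95% intervals (Poisson for counts, Clopper-Pearson for shares) and cover counting error only. Whether all reads, deduplicated reads or T-to-C conversions were counted is not stated, and reads amplified by PCR would not be independent molecules.

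Teneurins are large transmembrane proteins that bind latrophilin receptors and FLRT proteins on facing cells and are best known for matching partners at synapses. FAT cadherins are the longest cadherins of vertebrates. FAT4 binds the cadherin DCHS1 on neighbouring cells and orients cells within a tissue, and FAT1 acts on actin and cell junctions. In Drosophila, the gene fat restrains growth through the Hippo pathway, in which kinases hold back the coactivators YAP1 and WWTR1.

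CTCF binds DNA through its zinc fingers and is named for its first known target letters, CCCTC. The bases upstream of annotated starts are shown for the listed member with the highest and the one with the lowest count of each family, so that they can be compared. These starts were not matched to the counted intervals, so a window need not lie at the start of its gene's interval. The windows are the 250 bases before a start in RefSeq (GRCh38.p14), written 5′ to 3′ on the gene's strand, and capitals mark CCCTC on either strand.
TENM2, first window, chr5:167072992-167073241, plus strand: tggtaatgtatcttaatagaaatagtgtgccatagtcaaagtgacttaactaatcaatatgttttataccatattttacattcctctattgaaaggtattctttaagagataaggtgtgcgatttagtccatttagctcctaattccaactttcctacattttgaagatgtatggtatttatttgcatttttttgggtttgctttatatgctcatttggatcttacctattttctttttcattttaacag
TENM4, chr11:79441031-79441280, minus strand: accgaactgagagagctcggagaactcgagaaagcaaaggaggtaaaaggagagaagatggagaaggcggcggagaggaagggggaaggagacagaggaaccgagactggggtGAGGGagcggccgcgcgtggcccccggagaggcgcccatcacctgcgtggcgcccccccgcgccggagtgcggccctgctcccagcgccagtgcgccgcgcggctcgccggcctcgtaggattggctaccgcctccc
FAT1, first window, chr4:186726697-186726946, minus strand: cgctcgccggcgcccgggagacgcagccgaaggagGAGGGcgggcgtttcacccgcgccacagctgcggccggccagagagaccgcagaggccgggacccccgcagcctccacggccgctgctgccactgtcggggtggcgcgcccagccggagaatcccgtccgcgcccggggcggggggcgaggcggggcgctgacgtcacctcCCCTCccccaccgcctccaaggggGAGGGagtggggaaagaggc
FAT2, chr5:151591332-151591581, minus strand: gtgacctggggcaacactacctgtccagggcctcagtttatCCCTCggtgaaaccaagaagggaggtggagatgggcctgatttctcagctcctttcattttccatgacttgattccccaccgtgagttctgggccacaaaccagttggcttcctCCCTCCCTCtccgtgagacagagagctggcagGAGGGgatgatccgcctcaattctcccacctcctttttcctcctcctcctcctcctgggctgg
RefSeq gave 10 such windows for 6 of the members, TENM1, TENM2, TENM3, TENM4, FAT1 and FAT2. Of these, 8 held CCCTC, as did 66.6% of all 35116 windows of this length. The first FAT1 window held it 3 times, the FAT2 window 4 times, the TENM4 window 1 time and the first TENM2 window 0 times. The windows of FAT1 and TENM2, the members with the highest counts, differed in base composition, which describes the windows and not the genes or counted intervals. G and C made up 78.0% of the first FAT1 window and 74.0% of the second, while they made up 29.2% of the first TENM2 window and 46.4% of the second, and the median over all windows was 58.0%. A match of these letters is a description and says nothing of binding by CTCF.

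Within each family, 1 gene held most of the counts. TENM2 held 88.0% of the 2678 teneurin counts (86.7 to 89.2%), and FAT1 held 86.4% of the 2672 FAT counts (85.1 to 87.7%). The members were chosen by these very counts, so the levels are descriptions. Of the 8 members, 7 were listed, where 60.6% of 19124 RefSeq protein-coding genes were. At 10 counts or more there were again 7 members, against 54.1% of those genes. At 100 counts or more there were 4 members, against 16.0% of those genes, and at 1000 or more there were 2 members, against 0.261%. Because the choice of members used these counts, nothing is read from that contrast.

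TENM2 (ENSG00000145934) had 2356 counts (2262 to 2453) over a 978 kb interval on chromosome 5 (hg19, 166711804 to 167690001). TENM3 (ENSG00000218336), a teneurin of developing visual and hippocampal circuits in mice, had 257 (227 to 290) over 206 kb of chromosome 4 (183065140 to 183271469). TENM4 (ENSG00000149256), a teneurin required for oligodendrocyte maturation in mice, had 65 (50.2 to 82.8) over 788 kb of chromosome 11 (78363876 to 79151695). The order was thus TENM2, TENM3, TENM4, with no overlap of their counting intervals. TENM2 had 9.17 times the count of TENM3 (8.06 to 10.5) and 36.2 times that of TENM4 (28.3 to 47.1). The listed TENM3 interval of 206 kb may be only part of the gene, so its count, share and ratios refer to that interval. Per kb of interval the gap between TENM2 and TENM3 was smaller, at 2.41 and 1.25 counts per kb, a ratio of 1.93 (1.70 to 2.21), while TENM4 had 0.0825. TENM1 maps to the X chromosome, where 49.9% of 816 RefSeq protein-coding genes were listed, AMOT and SYN1 among them. Its absence shows only that it had fewer than 6 counts, the lowest listed, or was not counted.

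FAT1 (ENSG00000083857) had 2309 counts (2216 to 2405) over 136 kb of chromosome 4 (187508937 to 187645009). FAT4 (ENSG00000196159), the partner of DCHS1, had 273 (242 to 307) over 177 kb of the same chromosome (126237554 to 126414087). FAT3 (ENSG00000165323), which shapes neuronal processes in the mouse retina, had 71 (55.5 to 89.6) over 544 kb of chromosome 11 (92085707 to 92629411). FAT2 (ENSG00000086570), a FAT cadherin of cerebellar granule cells, had 19 (11.4 to 29.7) over 27.9 kb of chromosome 5 (150883654 to 150911533). FAT1 thus stood far above its paralogues, with 8.46 times the count of FAT4 (7.46 to 9.62), 32.5 times that of FAT3 (25.7 to 41.8) and 122 times that of FAT2 (77.6 to 202). Per kb, FAT1 had 17.0 counts, FAT4 1.55, FAT2 0.682 and FAT3 0.131. FAT2 and FAT3 change places on that scale, since the FAT2 interval is the shortest of the 7. Intervals in the table need not span a whole gene, so counts, shares, ratios and densities refer to the listed interval. The FAT2 interval of 27.9 kb in particular may be only part of its gene.

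**Figure D1:**
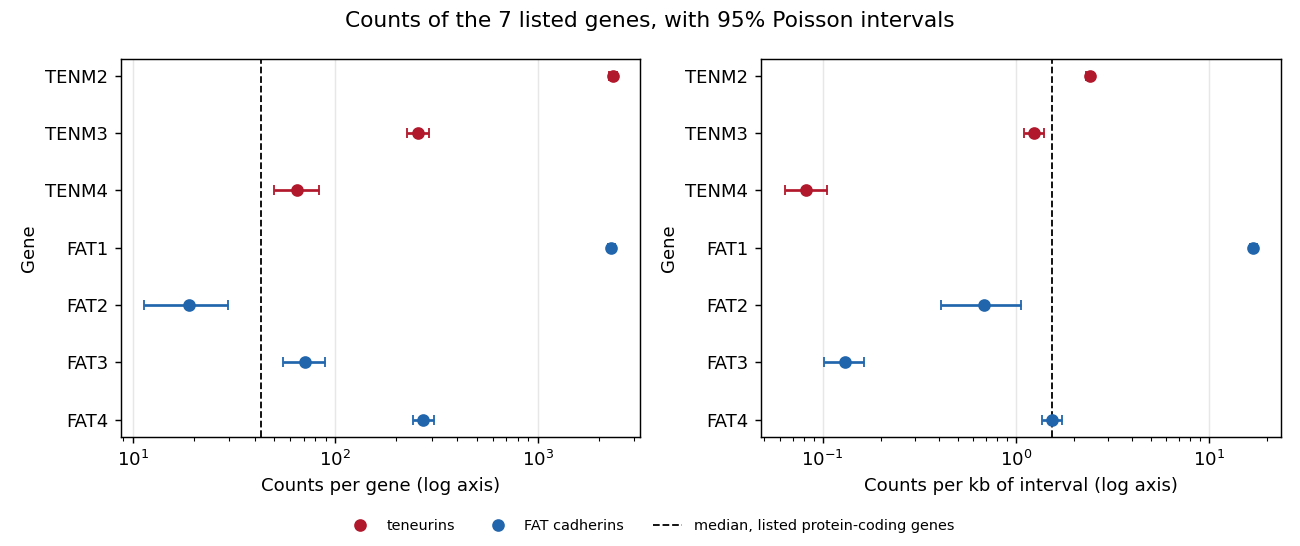
Counts per gene (left) and counts per kb of interval (right) of the 7 listed genes, on log axes, with teneurins in red, FAT cadherins in blue, bars for 95% Poisson intervals and a dashed line at the median of listed protein-coding genes. TENM2 (2356) and FAT1 (2309) lie together at the right of the count panel, while per kb FAT1 (17.0) lies far right of TENM2 (2.41).

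Across both families the genes fell into pairs of close counts. TENM2 and FAT1 differed by less than counting error, with a ratio of 1.02 (0.963 to 1.08). The same held for FAT4 against TENM3, at 1.06 (0.893 to 1.26), and for FAT3 against TENM4, at 1.09 (0.769 to 1.55). FAT2 stood lowest, and TENM4 had 3.42 times its count (2.03 to 6.04). Per kb the order was FAT1, TENM2, FAT4, TENM3, FAT2, FAT3 and TENM4, and every step was larger than counting error. FAT1 had 7.05 times the density of TENM2 (6.65 to 7.46). The smallest step was FAT4 over TENM3, at 1.24 (1.04 to 1.48). The highest count was 124 times the lowest, and the highest density 206 times the lowest.

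Long genes had more counts in this table, so each member was set beside listed genes of like length. All 17201 genes were ordered by length into 50 equal groups, and the count was given as a percentile of its group of 344. FAT1 lay at percentile 99.9 and had 26.8 times its group's median of 86. TENM2 lay at percentile 99.3 and had 23.6 times its group's median of 100. By counts per kb over all genes, FAT1 lay at percentile 92.3 but TENM2 only at 58.5. Within their length groups FAT4 and TENM3 were above the middle, at percentiles 82.4 and 78.8. They were below it when all genes were ranked by counts per kb, at 46.3 and 40.0. FAT3, TENM4 and FAT2 were below the middle of their length groups, at 42.6, 41.4 and 25.6. FAT3 and TENM4 were above it among genes that overlap no other listed gene, at 53.9 and 52.5, and without length matching, at 71.8 and 69.4. When all genes were ranked by counts per kb, FAT3 and TENM4 were far below it, at 4.49 and 2.56. TENM2, TENM4 and FAT3 were placed in the same group, the longest, which spans 396 to 2305 kb. The median percentile of the 7 was 78.8, and that of all listed genes was 50.1. Their median count was 257, against 31 over all listed genes, but their median density was 1.25 counts per kb, against 1.78.

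**Figure D2:**
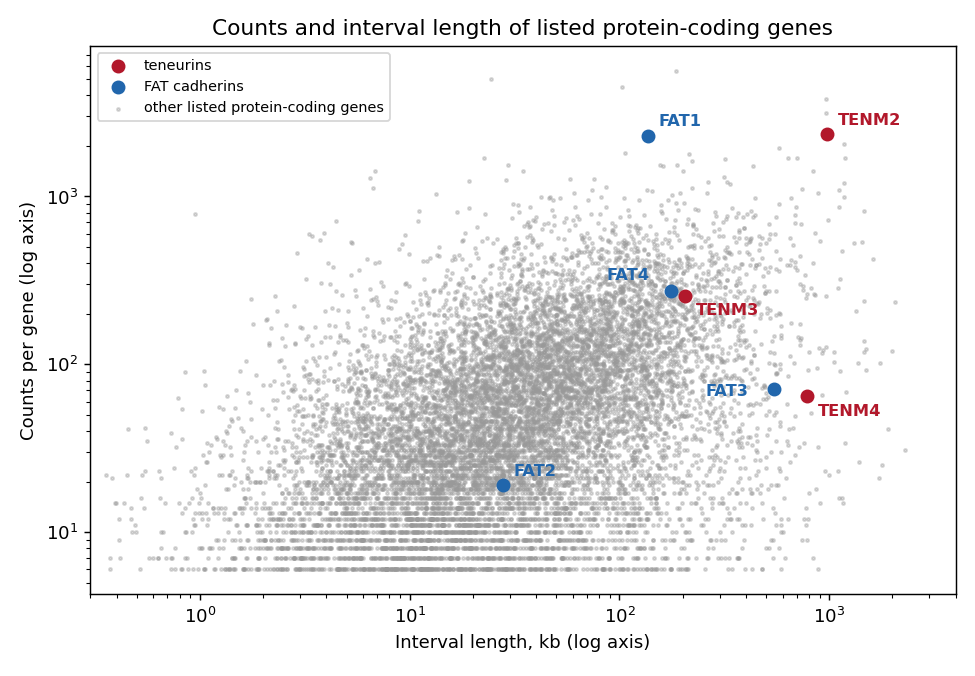
Counts per gene against interval length in kb, both on log axes, for listed protein-coding genes, with teneurins in red, FAT cadherins in blue and other genes in grey. FAT1 (136 kb) and TENM2 (978 kb) lie at the upper edge of the cloud at very different lengths, while TENM4 and FAT3 lie at the right within it.

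The 10 listed protein-coding genes nearest to FAT1 in length, between 135.7 and 136.5 kb, all had fewer counts than its 2309. UBR4, for a giant ubiquitin ligase, had 1093, VOPP1 550, RICTOR, for a subunit of the mTORC2 kinase complex, 231, and COP1, for a ubiquitin ligase, 144. MARK1 had 98, COG6 85, C12orf75 55, ENSG00000254553 29, TTC39B 13 and SGPP2 12. Their median was 91.5. FAT1 also stood at place 3 in counts per kb among the 2307 listed protein-coding genes of 100 kb or more. AHNAK, for a giant scaffold protein, had 44.0 per kb there and DST, for dystonin, 30.3. FAT1 had 16.97 per kb, nearly the same as the 16.96 of MYH9, for a non-muscle myosin, at place 4.

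For TENM2, with its 2356 counts, 8 of the 10 genes nearest in length had fewer, and these 10 had a median of 122.5. Above it were NTM (3819 counts) and SDK1 (3124), both for immunoglobulin-type adhesion proteins. Well below it came CAMTA1 with 729, ERC2 with 256, KCNIP4 with 126, DPP10 with 119 and PTPRN2 with 103. CACNA2D3 and DPP6 had 23 each, and PCDH15, for a cadherin of inner-ear hair cells, had 22. Genes near 1 megabase thus had counts from 22 to 3819 at nearly the same length. Of the 195 listed protein-coding genes of 500 kb or more, TENM2 stood at place 3 by count and place 5 per kb, where NTM, KIRREL3, SDK1 and LSAMP preceded it. TENM4 and FAT3 stood at places 120 and 116 by count and 118 and 102 per kb.

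The other members lay within the range of their 10 neighbours in length. TENM3 (257 counts) stood above 8 of them, tied with VPS53 and below KAT6B (295). FAT4 (273) stood above 8, below OLA1 (306) and SEMA3C (501). TENM4 (65) stood above 6, FAT3 (71) above 5 and FAT2 (19) above 3. The medians of those neighbours were 75, 141, 40, 74.5 and 22.5 counts for TENM3, FAT4, TENM4, FAT3 and FAT2.

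**Figure D3:**
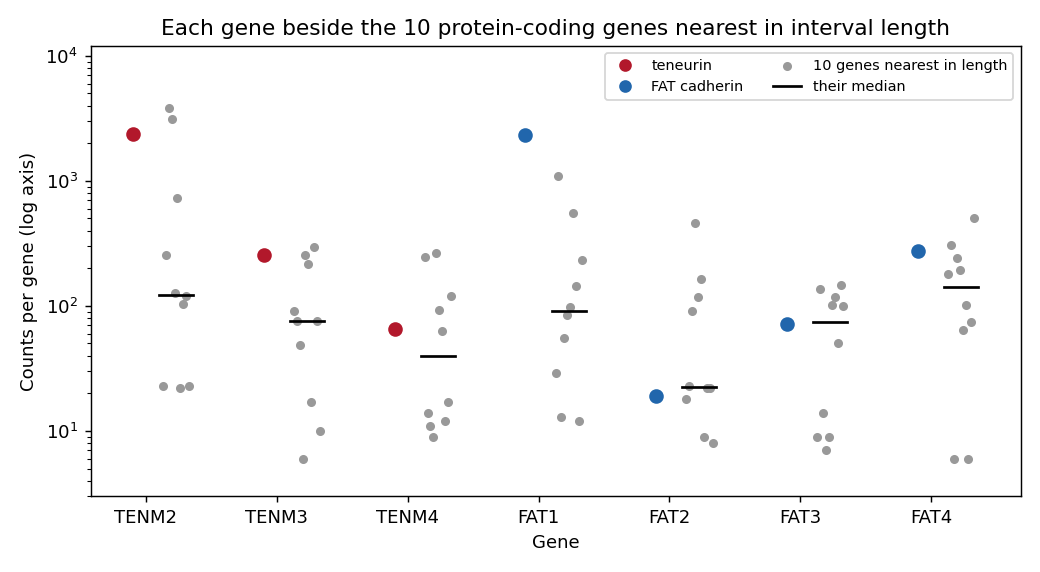
Counts per gene on a log axis for each member (coloured point, teneurins red and FAT cadherins blue) beside the 10 listed protein-coding genes nearest in interval length (grey) and their median (black line). FAT1 lies above all 10 of its neighbours and TENM2 above 8, while FAT2 (19) and FAT3 (71) lie just under their neighbours' medians of 22.5 and 74.5.

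Other genes annotated in the same place can share the reads of a member. TENM4 and the 4 FAT genes overlapped no other listed gene. Within TENM2 lay 2 genes annotated as antisense, ENSG00000253660 with 31 counts and ENSG00000253925 with 213, together 244 counts over 118 kb. Their density of 2.07 counts per kb (1.81 to 2.34) was 0.841 times the 2.46 per kb of the rest of the TENM2 interval (0.734 to 0.961). That rest was found by subtraction, which holds only if strand was ignored in counting, and 1 total per gene does not show where in the interval its reads lie. Within TENM3 lay the sense-intronic gene ENSG00000248266 with 46 counts, at 1.01 per kb against 1.31 for the rest of TENM3, a ratio of 0.770 (0.547 to 1.06). TENM3-AS1, annotated as antisense, had 254 counts over 270 kb but shared only 209 bases with the TENM3 interval. It held nearly the count of TENM3 itself. Whether strand was used in counting is not stated, so reads of sense and antisense genes cannot be told apart.

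The genes on each side of FAT1 and TENM2 had far lower counts. The nearest listed protein-coding genes beside FAT1 (17.0 counts per kb) were CYP4V2, for a fatty acid hydroxylase, with 10 counts and 0.519 per kb, and TRIML2 with 15 counts and 1.05 per kb. They lay 377 and 1367 kb away. Beside TENM2 (2.41 per kb) lay WWC1, for the Hippo scaffold KIBRA, 28.7 kb away with 181 counts and 1.00 per kb, and MAT2B, 3765 kb away with 49 counts and 3.02 per kb. The nearest to FAT4 were ANKRD50 (152 counts) and the centriole kinase gene PLK4 (168), and to TENM3 they were AGA (11) and DCTD (59). FAT2, at 19 counts, lay 129 kb from SPARC, for the bone matrix protein osteonectin, which had 260, and 39.5 kb from SLC36A1 with 28. FAT3 lay between CHORDC1 (162) and SMCO4 (24), and TENM4 between USP35 (33) and DDIAS (14). TENM4, with 65 counts over 788 kb, had a lower density (0.0825 per kb) than USP35 (1.31) and DDIAS (0.484), whose intervals are far shorter.

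Genes for the receptors and partners of teneurins lay near the middle of the table. Of 10, 8 were listed, where 60.6% of RefSeq protein-coding genes were, a share that also serves the next lists. The 8 had medians of 42 counts and percentile 48.3 for length, against 31 counts and percentile 50.1 over all listed genes. FLRT2, an adhesion partner of latrophilins, was highest with 477 counts (435 to 522) at percentile 96.7. The latrophilin genes ADGRL3, ADGRL1 and ADGRL2 had 95, 51 and 33 counts, at percentiles 49.6, 47.1 and 28.2. ADGRL1 overlaps ADGRL1-AS1, which also had 51. FURIN, for a protease that cleaves teneurins, had 72, and FLRT3 was lowest with 16 in an interval that overlaps MACROD2 (235). ADGRL4 and FLRT1 were not listed. All 3 genes of the list of FAT ligands and modifiers were listed, with a median percentile of 49.4. DCHS2 had 62 counts, DCHS1 46 and FJX1, the counterpart of the Drosophila Golgi kinase four-jointed, 13. Of 7 genes for cytoplasmic partners of FAT1, 6 were listed, with a median of 116 counts and a median percentile of 71.6. SCRIB, for a polarity scaffold, had 180, CTNNB1, for beta-catenin, 156, ENAH, for an actin regulator, 135 and VASP 12, and HOMER3 was not listed.

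For the Hippo pathway, all 16 genes of the chosen kinase cascade list and all 7 of the effector list were listed, where 60.6% of RefSeq protein-coding genes were. The kinase cascade list also holds regulators that are not kinases, FRMD6 and NF2 among them. The kinase cascade had a median of 139.5 counts and a median percentile for length of 75.0, and 13 of its genes lay above percentile 50, as did 8601 of all 17201 listed genes. FRMD6, for a membrane-associated upstream regulator, had 1410 counts (1337 to 1486) at percentile 99.3, and FRMD6-AS2, which overlaps it, had 622. NF2, for merlin, had 664 at percentile 99.6, STK4, for a core kinase, 352, and AMOTL1 was lowest with 39. The effectors had a median of 146 counts and a median percentile of 68.2. TEAD1, for a DNA-binding partner of YAP1, had 1212 (1145 to 1282) at percentile 99.3, YAP1 339, TEAD4 148 and TEAD2 25. All 5 genes of the YAP target list, which was chosen with earlier results of these data known, lay at percentile 91.4 or above. Their median was 324 counts: ANKRD1 had 522, AXL 334, CCN1 324, BIRC5 115 and CCN2 104. The list does not cover every YAP target. BIRC5 overlaps ENSG00000268310, which had 105. RNA abundance in U2OS cells was not part of these values, so a high place in this order does not separate recovery with CTCF from abundance.

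**Figure D4:**
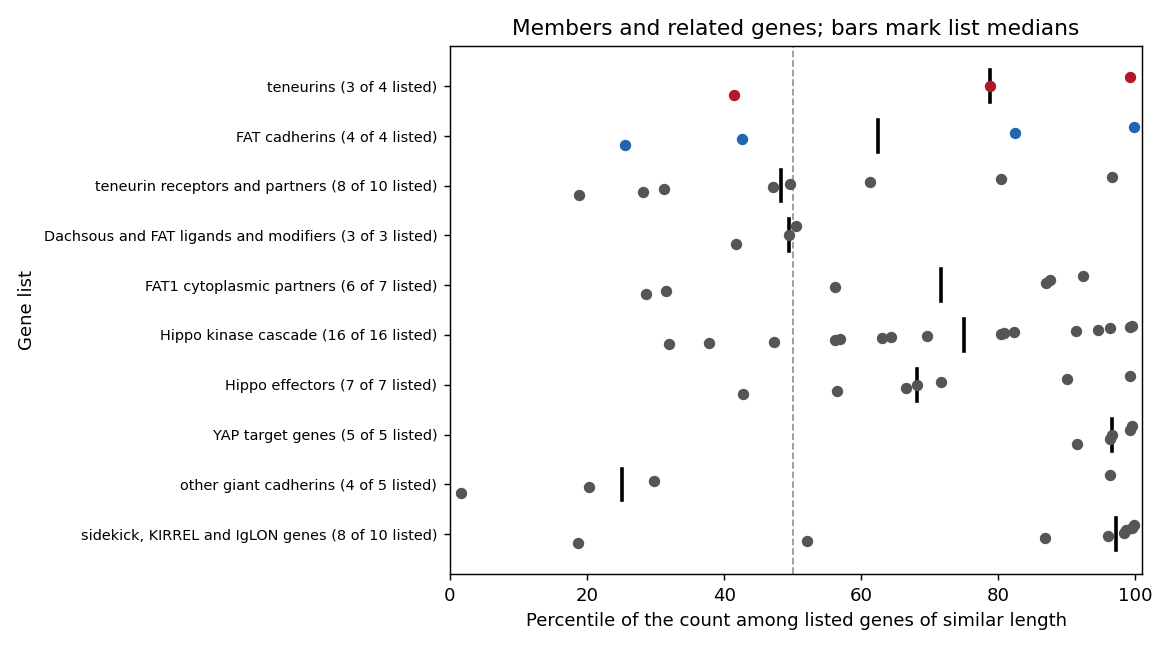
Percentile of each listed gene's count among listed genes of similar length (points) for the teneurins (red), the FAT cadherins (blue) and lists of related genes (grey), with bars at list medians and a dashed line at percentile 50. Teneurins and FAT cadherins spread from percentile 25.6 to 99.9, and the 5 genes of the YAP target list lie at 91.4 or above.

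Other large adhesion genes were set beside the members, whose median percentile for length was 78.8. The sidekick, KIRREL and IgLON genes had 8 of 10 listed, where 60.6% of RefSeq protein-coding genes were, and a median percentile of 97.2. NTM, SDK1 and KIRREL3 lay at percentiles 99.9, 99.6 and 98.7, and OPCML, with 19 counts, at 18.6. KIRREL2 and IGLON5 were not listed. The other giant cadherin genes were lower, with 4 of 5 listed and a median percentile of 25.1. CELSR3, for a seven-pass cadherin, had 203 counts at percentile 96.4, PCDH15 22, CELSR2 20 and CELSR1 6, and CDH23 was not listed. FAT1 had 11.4 times the count of CELSR3 (9.85 to 13.2), the highest of those, and 17.0 counts per kb against 7.68.

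The labelled cell type was checked against marker genes. Beside each list stands the share of RefSeq protein-coding genes that were listed, 60.6%. Of 8 osteosarcoma and mesenchymal genes, 7 were listed, among them FN1 for fibronectin (1277 counts), CD44 (632) and COL1A1 (602). ALPL, for bone alkaline phosphatase, had 8, and COL1A2 was not listed. Of 6 neuronal markers, 4 were listed, with SYT1 at 144 counts, RBFOX3 at 93, SYN1 at 51 and SNAP25 at 38, while GRIN1 and STMN2 were not. SYN1 overlaps TIMP1, which had 44 counts, and SYT1 overlaps ENSG00000257191 with 29 and ENSG00000257894 with 47. With 4 of 6 near that share, nothing is read from the neuronal list. The blood markers PTPRC, CD3E and HBB were not listed (0 of 3), and of the epithelial and liver markers CDH1 had 13 counts while EPCAM, ALB and APOA1 were not listed.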

How the data were processed

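CTCF PAR-CLIP of U2OS cells was analysed from the deposited table of 1 merged sample, which gives whole-number counts per Ensembl gene. The authors merged the sequencing data of both replicates, per the labels. Bowtie and bedtools were used with hg19, per the submitters' processing notes; versions, strand use and filters are not stated there. Counts ranged from 6 to 6801 and summed to 1322047, which is not the library size, because the table starts at 6 and overlapping genes share reads. Of 2435 nested pairs of intervals, the inner gene had the higher count in 0, as counting over whole intervals without strand would give.

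Identifiers were paired with symbols for 16520 of 17201 genes. Older symbols and the protein-coding background came from RefSeq for GRCh38.p14, used for names and upstream windows only; coordinates of genes are those of the table. Counts were divided by interval length, set among 50 length groups (20 as an alternative) and given exact 95% intervals with Python 3.11.15, scipy 1.17.1 and pandas 2.3.3. The percentile step was run on simulated counts drawn around each length group's own median, which checks the code only and says nothing of the members. Members, lists and rules were chosen with earlier results of these data known. Named genes are the members, genes that overlap or neighbour them, the 10 genes nearest in length to TENM2 and FAT1, and the 3 highest, the lowest and the unlisted genes of each list; others were named after their values were seen. The planned alignment of paralogous proteins was not run, because no protein sequences were used here. 1 gene of the blood marker list was left out and is not reported here.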

Additional observations from a re-analysis of the deposited data

How the results depend on the processing

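The number of members listed was 7 at 10 counts or more and 4 at 100 or more. TENM2's share of teneurin counts was 88.0%. It was 64.5% per kb, since TENM2 has the longest interval, and 97.0% when all counts of overlapping genes were taken off. The last setting takes the 254 counts of TENM3-AS1 from TENM3, although they share 209 bases. When only genes wholly inside a member were taken off, an alternative chosen after seeing the data, the share was 88.4%, and with TENM1 set to 5 counts it was 87.8%. FAT1's share of FAT counts was 86.4%, and 87.8% per kb. All FAT genes were listed, so setting unlisted paralogues to 5 counts had nothing to change. Of 35 alternative percentiles for length, 18 lay within the counting interval of the main value, 11 lay outside it on the same side of percentile 50 and 6 crossed it. Without length matching, TENM4 stood at percentile 69.4 and FAT3 at 71.8. Among genes that overlap no other listed gene they stood at 52.5 and 53.9. Ranked per kb, TENM3 stood at 40.0, FAT4 at 46.3, FAT3 at 4.49 and TENM4 at 2.56. FAT1 ranged from 92.3 to 99.96, FAT2 from 24.0 to 36.2 and TENM2 from 58.5, per kb, to 99.96. The side of the middle on which TENM3, TENM4, FAT3 and FAT4 lie thus depends on how length is treated. For TENM4 and FAT3 it also depends on which genes are compared. No paired analysis was possible because values of the single replicates were not analysed here, and leaving out a replicate was not run for the same reason. Depth limits TENM1, which was not listed, and FAT2, with 19 counts.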
